A study of Mus musculus with 118 samples.

Results

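The 6 Dlx genes of the mouse, Dlx1 to Dlx6, were described as 3 convergent pairs by the peaks of RING1B, SUZ12 and PCGF2 in untreated embryonic stem cells (ESCs). Members were chosen by name, out of 26182 genes with a curated RefSeq transcript on chromosomes 1 to 19, X and Y. The series holds 118 chromatin immunoprecipitation samples in 42 groups, made to ask what the catalytic activity of PRC1 contributes to Polycomb function, and the values used here are 3 deposited lists of peak positions. The RING1B and SUZ12 lists combine untreated cells of 2 lines, and the PCGF2 list comes from 1 line. RING1B samples of the second line helped to set the RING1B list, but the paper takes them from an earlier study. They are not among the 118 samples and were not themselves analysed here.

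In the first line, PRC1CPM (E14 strain, clone 41), Ring1a is Ring1aI50A/D53K, so that RING1A carries inactivating substitutions from the start, and Ring1b is Ring1b(WT->I53A/D56K)fl/fl, which stays wild type until tamoxifen activates the Rosa26::ERT2-Cre. The second, PRC1CKO (E14 strain, clone B9), is Ring1a-/- and Ring1bfl/fl with the same Cre, and so lacks RING1A and keeps RING1B until tamoxifen is given. Neither untreated line therefore has active RING1A, and each line is 1 clone, with the Cre expressed from the Rosa26 locus. The cells were male and were grown on gelatin with serum and LIF. For PRC1CPM there were 3 untreated samples each for RING1B, SUZ12 and PCGF2, and for PRC1CKO 3 untreated samples for SUZ12. The lists give a start and an end for each peak and nothing else, so the depth is unknown, no error between replicates could be given, no test was made, and a place without a peak cannot be read as a place without binding.

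RING1B is part of the catalytic core of PRC1, which ubiquitylates histone H2A. SUZ12 is a core subunit of PRC2, which methylates histone H3 at lysine 27, and PCGF2 (MEL18) marks the canonical form of PRC1 that reads this methylation. The Dlx genes encode homeodomain transcription factors related to Drosophila Distal-less. In the mouse they lie in pairs that are transcribed towards each other, share enhancers in the DNA between the genes, and act in the ventral forebrain, the branchial arches, the limb, bone and skin. Developmental regulators of this kind are typical Polycomb targets in ESCs.

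All 3 lists had a peak at the promoter of all 6 Dlx genes, and at 2 of the 3 pairs 1 peak of each list ran unbroken over both genes and all the DNA between them. Dlx1 and Dlx2 lay under a RING1B peak of 30698 bp, and Dlx6 and Dlx5 under a RING1B peak of 37823 bp. At Dlx3 and Dlx4 each gene had a peak of its own, of 10339 bp and 16860 bp, and the middle of the pair was free of peaks of any list.

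**Figure D1:**
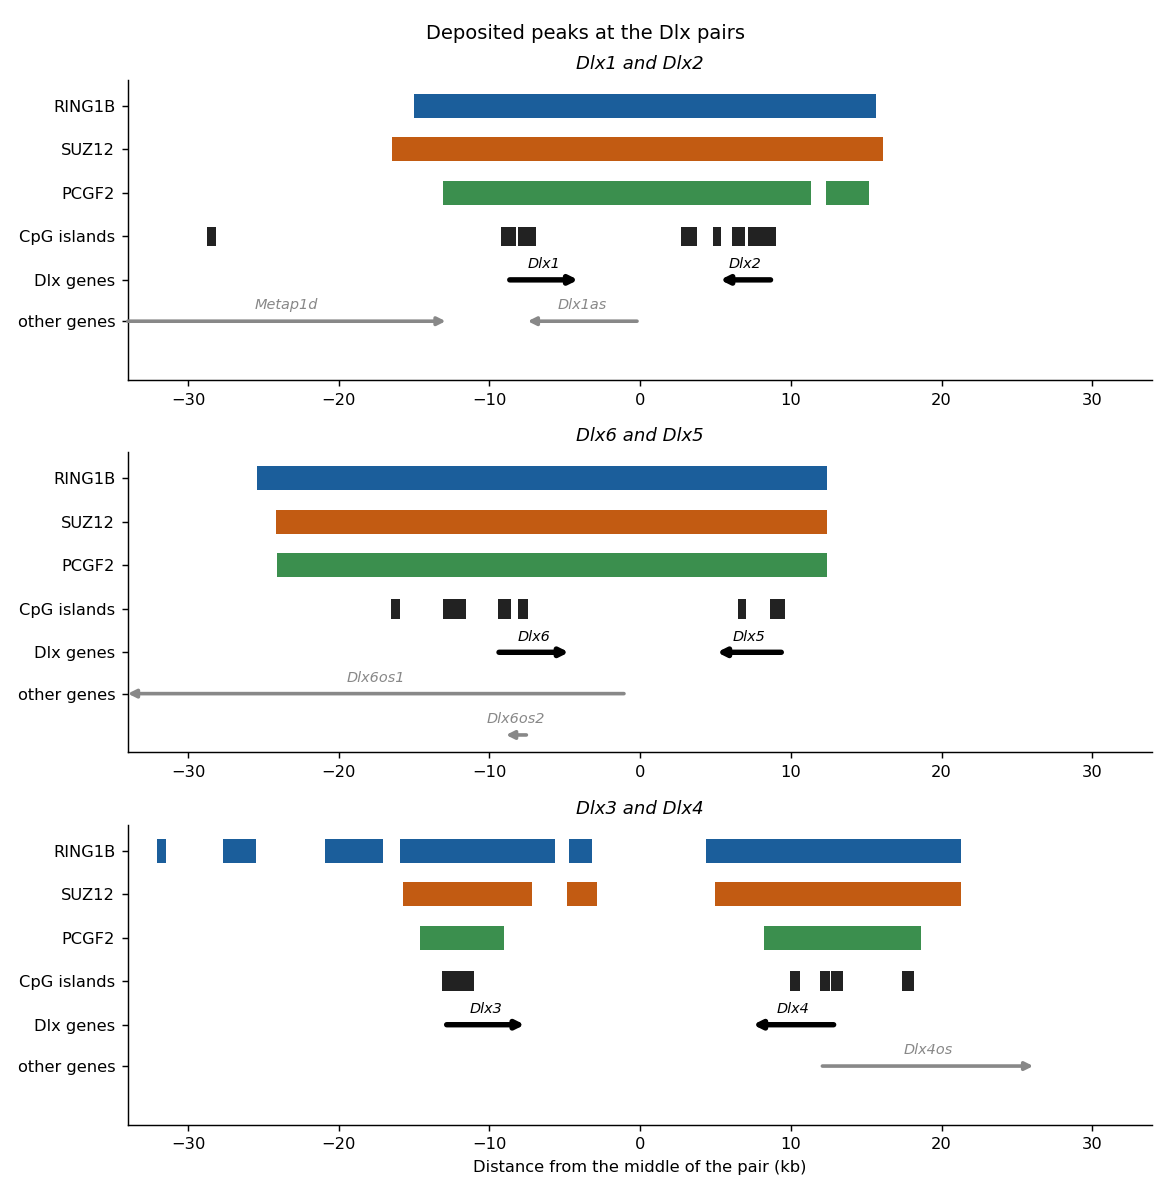
Peaks of RING1B (blue), SUZ12 (orange) and PCGF2 (green) at the 3 Dlx pairs, with CpG islands (black boxes), the Dlx genes (black arrows, pointing in the direction of transcription) and other curated genes (grey arrows), against the distance from the middle of each pair in kb. At Dlx1 and Dlx2 and at Dlx6 and Dlx5 1 bar of each list spans both genes, whereas the bars at Dlx3 and Dlx4 leave a gap between the genes.

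The pairs are placed here on GRCm38 (mm10). Dlx1, on the plus strand of chromosome 2, runs from 71529445 to 71533981, and Dlx2, on the minus strand, from 71543408 to 71546754. Their transcription start sites (TSSs) are 17309 bp apart, with 9426 bp of DNA between the 3′ ends. Dlx6 runs from 6863334 to 6867970 on the plus strand of chromosome 6 and Dlx5 from 6877801 to 6882068 on the minus strand, with TSSs 18734 bp apart and 9830 bp between the genes. Dlx3 runs from 95120117 to 95125296 on the plus strand of chromosome 11 and Dlx4 from 95140447 to 95145801 on the minus strand, with TSSs 25684 bp apart and 15150 bp between the genes. The pair that was split by its peaks is thus also the one whose genes lie farthest apart.

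Sequences of 3 kinds of place are shown to let the differences in base composition under the peaks be seen, each 5′ to 3′ with every CpG dinucleotide in capitals. The promoter table of RefSeq (GRCm38.p6) held 2 of the 6 members, Dlx1 and Dlx2. The 250 bases before the Dlx2 TSS, at chr2:71546755-71547004 on the minus strand, are shown because they lie inside the wide peak of each list and are rich in CpG, with 24 CpGs and a GC content of 66.4%.
Dlx2 promoter: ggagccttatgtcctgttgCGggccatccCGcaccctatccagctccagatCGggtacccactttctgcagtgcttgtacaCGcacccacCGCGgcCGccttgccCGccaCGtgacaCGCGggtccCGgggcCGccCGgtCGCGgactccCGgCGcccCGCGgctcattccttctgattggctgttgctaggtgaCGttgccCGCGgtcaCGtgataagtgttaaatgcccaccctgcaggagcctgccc

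A different kind of promoter lay under the peaks at Dlx6 and Dlx5. Dlx6os1 is a long noncoding RNA gene transcribed from the minus strand across Dlx6, and the 250 bases before its TSS at 6869533, at chr6:6869534-6869783, lie between Dlx6 and Dlx5. They held 5 CpGs and a GC content of 33.2%, and were also wholly inside a peak of each list. The 250 bases before the TSS of the same gene at 6861683, at chr6:6861684-6861933, upstream of Dlx6, held 3 CpGs and 34% GC and were inside the same peaks.
Dlx6os1 promoter between the genes: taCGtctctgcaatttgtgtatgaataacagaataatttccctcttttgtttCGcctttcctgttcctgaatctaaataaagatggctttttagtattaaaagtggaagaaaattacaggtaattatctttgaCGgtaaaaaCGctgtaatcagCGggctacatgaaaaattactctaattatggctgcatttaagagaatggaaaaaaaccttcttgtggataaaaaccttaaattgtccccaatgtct
Dlx6os1 promoter upstream of Dlx6: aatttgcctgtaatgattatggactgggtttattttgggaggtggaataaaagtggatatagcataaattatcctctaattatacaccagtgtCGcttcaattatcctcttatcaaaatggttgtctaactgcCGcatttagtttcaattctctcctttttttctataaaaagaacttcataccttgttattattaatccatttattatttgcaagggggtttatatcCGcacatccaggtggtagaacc

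The third kind of place is the DNA between the genes, shown as 200 bases of the plus strand of the GRCm38.p6 genome. The middle of the DNA between Dlx1 and Dlx2, at chr2:71538594-71538793, held 6 CpGs, and the middle of that between Dlx6 and Dlx5, at chr6:6872785-6872984, held 1, and each lay inside a peak of every list. The middle of the longest stretch without a peak between Dlx3 and Dlx4, at chr11:95133634-95133833, held 5 CpGs and lay in no peak. The count of CpGs in these 3 short windows thus did not follow the peaks.
Between Dlx1 and Dlx2: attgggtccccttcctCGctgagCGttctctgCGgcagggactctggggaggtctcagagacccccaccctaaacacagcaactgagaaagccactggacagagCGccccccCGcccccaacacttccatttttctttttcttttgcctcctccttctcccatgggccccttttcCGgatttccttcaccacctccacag
Between Dlx6 and Dlx5: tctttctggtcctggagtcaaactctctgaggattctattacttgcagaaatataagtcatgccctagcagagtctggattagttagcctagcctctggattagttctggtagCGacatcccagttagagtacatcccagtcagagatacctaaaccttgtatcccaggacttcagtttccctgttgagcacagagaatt
Between Dlx3 and Dlx4: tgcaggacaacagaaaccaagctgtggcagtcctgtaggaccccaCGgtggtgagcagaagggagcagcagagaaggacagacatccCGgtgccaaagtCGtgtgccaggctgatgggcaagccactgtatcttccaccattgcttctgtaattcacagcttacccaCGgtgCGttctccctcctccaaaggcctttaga

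Promoters were first compared with all genes. With a promoter defined as 2500 bp on each side of a curated TSS and an overlap of at least 1 bp, 6 of 6 Dlx genes had a RING1B peak, where 53.2% of all 26182 curated genes had one. For SUZ12 it was 6 of 6 against 24.8%, and for PCGF2 6 of 6 against 13.5%. Peaks of all 3 lists were at 6 of 6 Dlx promoters and at 13.4% of all promoters, or 3508 genes. In each list the peak contained the TSS itself at all 6 genes. The 6 promoters are not 6 separate observations, because Dlx1 and Dlx2 shared their peaks, as did Dlx5 and Dlx6.

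The promoter windows were covered rather than touched. RING1B and SUZ12 peaks covered 100% of the window at all 6 genes, where the median over the genes with a peak of that list was 32.7% for RING1B and 50.7% for SUZ12. PCGF2 covered 100% of the window at 5 genes and 84.8% at Dlx3, against a median of 50.4% over all genes with a PCGF2 peak. Among these 6 windows Dlx3 was thus the exception, and only in the PCGF2 list.

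To ask how the peaks at Dlx genes compared in size with the rest of each list, the widest peak at each promoter was ranked among all peaks. Median widths were 1495 bp over the 18643 RING1B peaks, 2666 bp over the 7438 SUZ12 peaks and 2589 bp over the 3680 PCGF2 peaks. At Dlx5 and Dlx6, which act in the jaw, limb and bone and in forebrain interneurons, the peaks were 37823 bp for RING1B, 36617 bp for SUZ12 and 36487 bp for PCGF2. These were the 15th, 17th and 9th widest of their lists.

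At Dlx1 and Dlx2, which are needed for the differentiation and migration of forebrain interneurons, the widest peaks were 30698 bp for RING1B, 32604 bp for SUZ12 and 24393 bp for PCGF2, which ranked 28, 20 and 25 from the widest. At Dlx4 the widths were 16860, 16335 and 10399 bp in the same order of lists, and the ranks 148, 164 and 223. At Dlx3, which acts in skin, hair, tooth and placenta, they were 10339, 8569 and 5573 bp, and the ranks 379, 551 and 511. In all 3 lists the order of widths was therefore Dlx5 and Dlx6, then Dlx1 and Dlx2, then Dlx4, then Dlx3. With 1 value for each list, whether neighbours in that order differ beyond the error of peak calling could not be tested.

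Relative to the lists, the RING1B peak at Dlx3 was wider than 98.0% of RING1B peaks, and its PCGF2 peak wider than 86.1% of PCGF2 peaks. The median over the 6 members was 99.8% for RING1B, 99.7% for SUZ12 and 99.3% for PCGF2. Shared peaks count for both genes, so this median is the value of the peak at Dlx1 and Dlx2. At Dlx4 the values were lower, at 99.2%, 97.8% and 93.9%. Genes with peaks of all 3 lists had a median widest peak of 4918 bp for RING1B, 5394 bp for SUZ12 and 2914 bp for PCGF2, and every Dlx gene was above each of these medians.

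**Figure D2:**
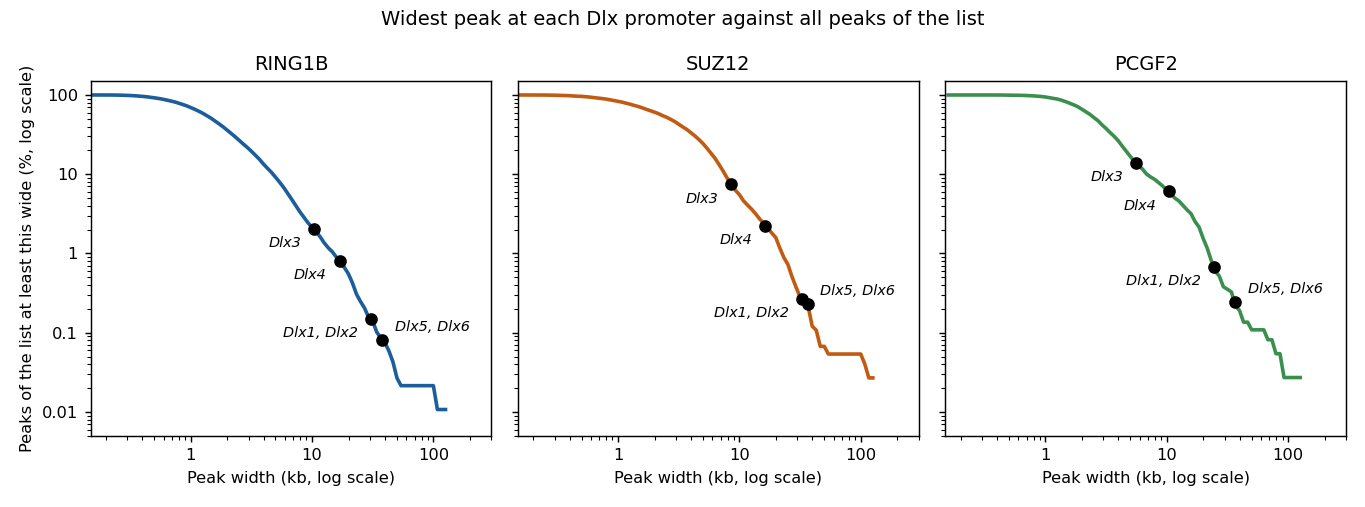
Share of the peaks of each list that are at least as wide as the width on the horizontal axis (both axes logarithmic), with black points for the widest peak at each Dlx promoter. The shared peak of Dlx5 and Dlx6 and that of Dlx1 and Dlx2 lie at the wide end of each curve, and Dlx3 is the narrowest in each list, at 10339, 8569 and 5573 bp.

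The next comparison asked whether 1 peak bridged a pair, which was counted when a peak overlapped the promoters of both genes. In each list 2 of the 3 Dlx pairs were bridged. Among 2512 pairs of neighbouring convergent genes whose TSSs lie within 50 kb of each other, RING1B peaks bridged 1.95%, SUZ12 peaks 1.43% and PCGF2 peaks 0.876%. Of the 934 pairs with a RING1B peak at both promoters 5.25% were bridged by 1 peak, of the 172 such pairs for SUZ12 20.9%, and of the 60 such pairs for PCGF2 36.7%. Dlx3 and Dlx4 belonged to the unbridged pairs in every list.

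The 22 pairs bridged by PCGF2 were also bridged by RING1B and by SUZ12. When the pairs were restricted to protein-coding neighbours, 1822 remained, of which 4, or 0.22%, were bridged by a peak of each list. These 4, named after their values were seen, were Dlx1 with Dlx2, Dlx6 with Dlx5, Oxt with Avp, and Ubd with Olfr94. Oxt and Avp, which encode the oxytocin and vasopressin precursors, have TSSs 6419 bp apart, and the TSSs of Ubd and Olfr94 are 4074 bp apart. Among these 4, the bridged Dlx pairs, at 17309 and 18734 bp, were the more widely spaced. Of the 22 pairs of all gene types, many of them in Hox clusters, 6 had TSSs at least as far apart as Dlx1 and Dlx2. Both bridged Dlx pairs are counted in these 6, and the widest spacing was 35127 bp, at Hoxb4 and Hoxb3os. Both promoters carried peaks of all 3 lists at 36 protein-coding pairs, and all 3 Dlx pairs were among them. Of these 36, 4 were bridged by a peak of each list, and they are the 4 pairs named above.

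The DNA between the 3′ ends of the genes was then examined by itself, as this is where enhancers shared by a pair are known to lie. A RING1B peak overlapped it in 3 of 3 Dlx pairs, against 21.7% of the 2512 pairs, a SUZ12 peak in 3 of 3 against 11.8%, and a PCGF2 peak in 2 of 3 against 5.14%. All 9426 bp between Dlx1 and Dlx2 and all 9830 bp between Dlx6 and Dlx5 were covered in each list. These 2 stretches also hold TSSs of noncoding genes, Dlx1as at 71537891 and Dlx6os1 at 6869533 and 6871627. Dlx4os instead starts inside Dlx4, at 95145053. Between Dlx3 and Dlx4, RING1B peaks covered 6701 of 15150 bp (44.2%), SUZ12 peaks 5077 bp (33.5%) and PCGF2 peaks 0 bp. Among pairs with a peak of the list at both promoters, the median share of this DNA covered was 0% for RING1B, 12.5% for SUZ12 and 39.3% for PCGF2.

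Coverage between Dlx3 and Dlx4 came from 3 RING1B peaks. The ends of the peaks at each gene reached 2041 bp past the 3′ end of Dlx3 and 3085 bp past that of Dlx4, and a separate peak of 1575 bp lay at chr11:95128221-95129795, with no TSS in it. SUZ12 had a peak of 2026 bp at the same place, from 95128082 to 95130107, which held the whole RING1B peak, and PCGF2 had none there. From 95130108 to 95137361, a stretch of 7254 bp that starts 4812 bp past the 3′ end of Dlx3, no list had a peak. The 2 PCGF2 peaks of this pair were 17247 bp apart.

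**Figure D3:**
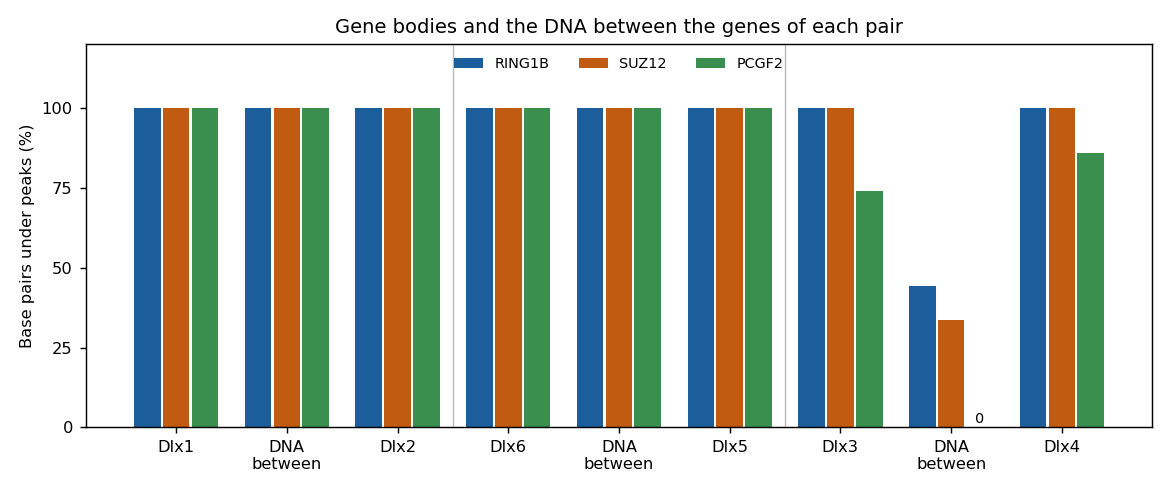
Percent of the base pairs of each Dlx gene body and of the DNA between the genes of each pair that lie under peaks of RING1B (blue), SUZ12 (orange) and PCGF2 (green), with 1 deposited list for each bar and no error. All bars stand at 100% for Dlx1, Dlx2, Dlx5 and Dlx6 and the DNA between them, whereas between Dlx3 and Dlx4 the bars are at 44.2%, 33.5% and 0%.

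Whole gene bodies lay under the peaks. RING1B and SUZ12 peaks covered 100% of the body of all 6 Dlx genes, and PCGF2 peaks 100% of the bodies of 4, with 74.0% at Dlx3 and 86.0% at Dlx4. Of all curated genes, 3.57% were wholly covered by RING1B peaks, 2.49% by SUZ12 peaks and 1.6% by PCGF2 peaks. Short genes are more easily covered, and the Dlx bodies measure 3347 to 5355 bp. Of the 1555 protein-coding genes in this range of lengths, 7.46% were wholly covered by RING1B, 7.40% by SUZ12 and 4.89% by PCGF2. Of the 213 among them with promoter peaks of all 3 lists, the shares were 48.8%, 51.2% and 35.7%.

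At Dlx3 and Dlx4, PCGF2 peaks stopped inside the genes. The PCGF2 peak of Dlx3 ended 1346 bp before the 3′ end of the gene, and that of Dlx4 751 bp before its 3′ end. RING1B peaks passed the 3′ end at all 6 genes, and did so at 17.4% of the 3440 genes that had peaks of all 3 lists and a TSS inside the RING1B peak. Those 3440 genes are of every length and the Dlx genes are short, so this contrast is not matched for length. Of the 213 protein-coding genes of Dlx length with all 3 lists, 48.8% were wholly covered by RING1B.

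Peaks also reached outward from the pairs, and by unequal distances. Upstream of the Dlx6 TSS the peak ran on for 16043 bp in RING1B, 14831 bp in SUZ12 and 14744 bp in PCGF2, across the body of Dlx6os1. Upstream of Dlx5, at the other end of the same domain, it ran on for only 3045, 3051 and 3008 bp. The domain of this pair was therefore lopsided in every list, with the long side over Dlx6os1.

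The domain of Dlx1 and Dlx2 was more even, with 6376 bp upstream of Dlx1 and 7012 bp upstream of Dlx2 in RING1B. Upstream of Dlx4 the RING1B peak reached 8420 bp, into Dlx4os, a noncoding RNA gene that starts inside Dlx4 and runs away from it, and upstream of Dlx3 it reached 3118 bp. The median over the 6 members was 6694 bp for RING1B, 7647 bp for SUZ12 and 3712 bp for PCGF2. Over the genes with all 3 lists at the promoter and the TSS inside the peak it was 2100, 2431 and 1220 bp.

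Borders of SUZ12 and PCGF2 were next set against those of RING1B. At Dlx6 and Dlx5 the right borders of all 3 lists lay within 43 bp of each other, with SUZ12 6 bp beyond and PCGF2 37 bp short of the RING1B end at 6885113. The left borders were less close, and SUZ12 and PCGF2 began 1212 and 1299 bp inside the RING1B peak. PCGF2 here had 96.5% of the width of the RING1B peak, where the median was 62.4% over the 3466 PCGF2 peaks that matched 1 RING1B peak one to one. A ratio of widths rises with the width itself, and the median over the 11 such PCGF2 peaks with a RING1B peak of at least 30 kb was 94.3%. In base pairs, the median distance between a PCGF2 border and its RING1B border was 768 bp over the 3466 peaks.

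At Dlx1 and Dlx2 the SUZ12 peak was wider than the RING1B peak by 1440 bp on the left and 466 bp on the right. The main PCGF2 peak was narrower by 1960 bp on the left and 4345 bp on the right, and a second PCGF2 peak of 2824 bp, at chr2:71550432-71553255, followed after a gap of 1010 bp. This second peak lay upstream of Dlx2, contained no TSS, and ended 511 bp short of the RING1B peak. With it, PCGF2 peaks added up to 27217 bp at this pair.

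At Dlx3 and Dlx4 PCGF2 was narrower still. The PCGF2 peak at Dlx3 had 53.9% of the width of the RING1B peak and that at Dlx4 61.7%, close to the median of 62.4%. For SUZ12 the shares were 82.9% and 96.9%, where the median over 6717 SUZ12 peaks matched one to one was 101%. On the far side of Dlx4 the RING1B and SUZ12 peaks ended 7 bp apart. Since the lists were called by different rules, a border that differs between lists cannot be told apart from a difference in calling.

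The surroundings of the pairs differed as well. Around Dlx6 and Dlx5 the next SUZ12 peaks were 841648 bp to the left and 668075 bp to the right, and the next PCGF2 peaks 1122339 and 669530 bp away, while the next RING1B peaks lay at 159259 and 70806 bp. Around Dlx1 and Dlx2 the next PCGF2 peaks were 405684 and 426671 bp away, but the next RING1B peaks only 69298 and 27333 bp and the next SUZ12 peaks 68441 and 26543 bp. To the right of Dlx3 and Dlx4 the next peaks lay at 47304 bp for RING1B, 43493 bp for SUZ12 and 50456 bp for PCGF2. Within 20 kb of this pair RING1B had 6 peaks that added up to 35422 bp, against 3 SUZ12 peaks with 26930 bp and 2 PCGF2 peaks with 15972 bp. The 3 RING1B peaks to the left of Dlx3, of 615, 2201 and 3832 bp, had no SUZ12 or PCGF2 peak over them and held no TSS.

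Protein-coding neighbours were outside the wide peaks. The exception was the 3′ end of Metap1d, a mitochondrial methionine aminopeptidase gene that ends 4254 bp before the Dlx1 TSS. The RING1B peak of Dlx1 and Dlx2 covered its last 2123 bp, the SUZ12 peak 3563 bp and the PCGF2 peak 163 bp, although the Metap1d TSS was 69731 bp from the RING1B peak. The Metap1d promoter had its own peaks of 1677 bp in RING1B and 1010 bp in SUZ12, and none in PCGF2.

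Of the 12 protein-coding genes nearest to the 3 pairs, 12 had a RING1B peak at the promoter, 6 a SUZ12 peak and 2 a PCGF2 peak, where the shares over all protein-coding genes were 58.5%, 27.2% and 14.5%. Those with PCGF2 were Itga3, an integrin gene, with a peak of 1115 bp, and Tac1, which encodes substance P, with a peak of 1930 bp. RING1B peaks at the 12 promoters measured 357 to 4161 bp, from Sem1, a proteasome component, to Itga3. None of these neighbours shared a promoter peak with a Dlx gene. The noncoding genes in the pairs, Dlx1as, Dlx6os1, Dlx6os2 and Dlx4os, shared the peaks of their Dlx neighbours in all 3 lists, because their TSSs lie inside them.

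By annotation the wide peaks were mostly not exonic. The RING1B peak at Dlx1 and Dlx2 was 24.2% exon, 21.1% intron and 54.7% intergenic DNA by curated transcripts of either strand. That at Dlx6 and Dlx5 was 11.2% exon, 64.4% intron and 24.4% intergenic, and its intronic share is mostly Dlx6os1, which spans the left part of the domain. At Dlx4 the RING1B peak was 70.1% intron, of Dlx4 and Dlx4os, and at Dlx3 it was 24.9% intron and 49.9% intergenic.

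Base composition was examined because CpG islands are the usual sites of Polycomb binding in ESCs. In the promoter windows the ratio of observed to expected CpG was 0.67 at Dlx2, 0.61 at Dlx1, 0.56 at Dlx6, 0.55 at Dlx3, 0.48 at Dlx5 and 0.45 at Dlx4. The median was 0.33 over all curated promoters, taking 1 TSS for each gene, and 0.48 over the 3508 with all 3 lists. The number of CpGs ran from 153 at Dlx5 to 237 at Dlx2, against medians of 92 and 160. All 6 Dlx promoters thus lay above the median of all promoters, but Dlx4 was below the median of promoters with all 3 lists and Dlx5 was close to it.

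In the 250 bp directly before the TSS the order was different. Dlx2 held 24 CpGs, Dlx1 22, Dlx4 19, Dlx3 13, Dlx5 10 and Dlx6 3, against a median of 8 over all genes and of 16 over the genes with all 3 lists. Dlx3, Dlx5 and Dlx6 were below the latter median. Dlx6, which lay under the widest peak, therefore had the fewest CpGs just before its TSS. A CpG island of 910 bp starts near the Dlx6 TSS instead and runs from 6863241 to 6864150 into the gene.

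CpG islands were called as stretches of at least 500 bp with a GC content of at least 50% and an observed to expected ratio of at least 0.6. Within 20 kb of the pairs there were 19, of 500 to 1870 bp, with 7 at Dlx1 and Dlx2, 6 at Dlx6 and Dlx5 and 6 at Dlx3 and Dlx4. A peak of each list overlapped 18 of the 19, where RING1B overlapped 55% of the 25041 islands of the genome, SUZ12 30.3% and PCGF2 18.9%. The island with no peak, of 600 bp, lay in Metap1d. Only 1 island, of 1040 bp and between Dlx1 and Dlx2, lay wholly in the DNA between the genes of a pair, so the unbroken peak at Dlx6 and Dlx5 crossed DNA between the genes that held no whole island.

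The peaks were much wider than the islands in them. The 6 islands within 20 kb of Dlx6 and Dlx5 added up to 5230 bp, under a RING1B peak of 37823 bp. Over the whole RING1B peak the observed to expected ratio was 0.46 at Dlx1 and Dlx2 and 0.40 at Dlx6 and Dlx5. The median was 0.52 over all RING1B peaks and 0.44 over the 102 RING1B peaks of at least 20 kb. In the DNA between the genes it was 0.46 between Dlx1 and Dlx2, 0.31 between Dlx6 and Dlx5 and 0.21 between Dlx3 and Dlx4, which is the order of CpG content but not that of the peak widths.

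In 500-bp bins of the 60 kb around each pair, the bins covered by RING1B had the higher median at all 3 pairs. At Dlx1 and Dlx2 it was 0.41 over 61 covered bins and 0.25 over 59 others, at Dlx6 and Dlx5 0.32 over 76 and 0.19 over 44, and at Dlx3 and Dlx4 0.25 over 70 and 0.17 over 50. The covered bins ranged widely, from 0.03 to 0.89 at Dlx1 and Dlx2, so CpG-poor DNA also lay under the peaks. Neighbouring bins are not independent, and these medians are a description of 3 loci.

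**Figure D4:**
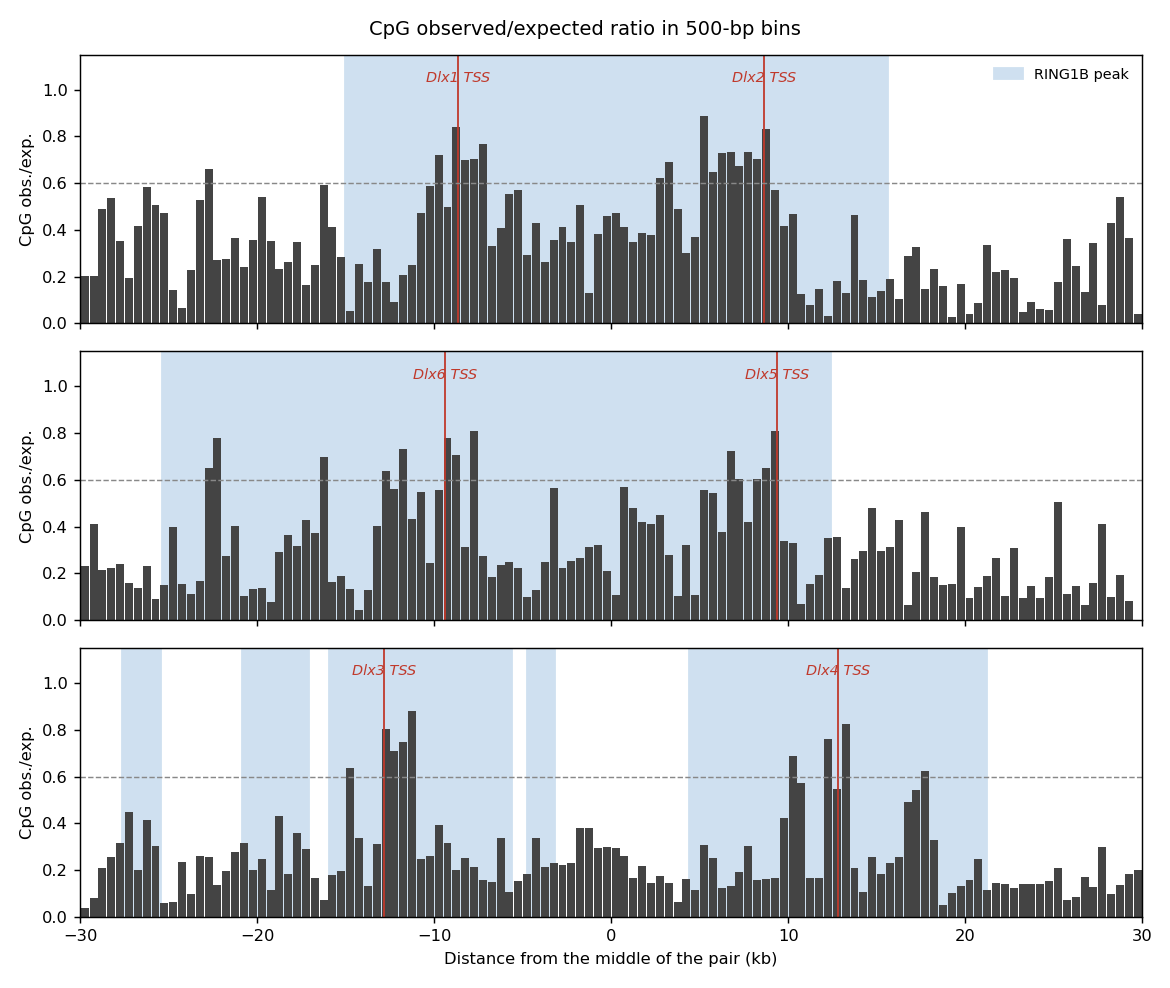
Ratio of observed to expected CpG in 500-bp bins (bars) against the distance from the middle of each pair in kb, with RING1B peaks shaded blue, the Dlx TSSs as red lines and the island threshold of 0.6 dashed. Many bins above 0.6 lie at the genes, with others upstream of Dlx6, and the shaded peaks at every pair also cover CpG-poor bins.

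Short motifs, which read the same on both strands, were counted in the 5001-bp promoter windows. The E-box CACGTG was found in 5 of 6 Dlx windows, 2 times each at Dlx1 and Dlx2, 1 time each at Dlx4, Dlx5 and Dlx6 and not at Dlx3. It was in 48.8% of all promoter windows and in 53.7% of the 3508 with peaks of all 3 lists. Both copies at Dlx2 are in the 250 bases printed above. TAATTA, the core letters bound by many homeodomains, was found in 3 of 6, with 5 at Dlx1, 3 at Dlx2 and 1 at Dlx6. The shares were 67.6% of all windows and 60.2% of those with peaks of all 3 lists. In the Dlx6os1 promoter between Dlx6 and Dlx5 it occurred 2 times.

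Genes with the most similar peak widths were found by the distance between the log10 widths of their widest promoter peaks in the 3 lists, among the 3508 genes with all 3. The gene nearest to Dlx1 and Dlx2 was Pax2, a regulator of kidney, eye and midbrain development, with 33419 bp in RING1B, 34434 bp in SUZ12 and 23558 bp in PCGF2. Next came Nr2e1, an orphan nuclear receptor of neural stem cells, and Gm38491, which share 1 peak in each list. For Dlx5 and Dlx6 it was Pax3, a regulator of neural crest and muscle precursors, together with Gm2102 and Gm33152 under the same peaks of 36873, 36950 and 34756 bp. For Dlx4 the nearest were Foxe1 with the noncoding Gm12446 on shared peaks, and Foxl2, both forkhead genes, and for Dlx3 Cyp1b1, a cytochrome P450 gene, and Prkce, a protein kinase C gene, with the noncoding Gm5817. Apart from those at Dlx3, the named protein-coding genes other than Gm2102 are developmental transcription factors.

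Lists of genes that act in the same tissues or belong to related families were read in the same way. All 5 related homeobox genes (Msx1, Msx2, Msx3, Barx1 and Barx2) had promoter peaks of all 3 lists, against 13.4% of all genes. Their median widest RING1B peak was 19576 bp, and the widest were at Msx3, with 20724 bp, and Barx1, with 19585 bp. The 4 Dlx genes of the bridged pairs were above every gene of this list in all 3 lists, and Dlx3 was below 4 of the 5 in RING1B and below all 5 in SUZ12 and PCGF2. Dlx4 was below 4 of the 5 in RING1B and SUZ12 and below 3 in PCGF2. The peaks of the bridged pairs contain the TSSs of both genes, which lie 17309 and 18734 bp apart. They are at least that wide because they bridge, so their width and the bridging are not separate results.

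Of 12 genes of the ventral forebrain and of GABAergic neurons, where Dlx1, Dlx2, Dlx5 and Dlx6 act, all 12 had peaks of all 3 lists. The share over all genes was 13.4%, and 53.2% had a RING1B peak. The widest RING1B peaks were at Nkx2-1, the regulator of the medial ganglionic eminence, with 24583 bp, and Sp8, a zinc finger factor, with 22464 bp. Even the genes of the differentiated cell were included, since Gad1 and Gad2, which make GABA, had RING1B peaks of 12327 and 9805 bp. The 30698 bp at Dlx1 and Dlx2 exceeded all of these, while 10 of the 12 genes had a RING1B peak at least as wide as that of Dlx3.

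Of 10 branchial arch and limb genes, 10 had RING1B and SUZ12 peaks and 9 PCGF2 peaks. Over all genes the shares were 53.2% for RING1B, 24.8% for SUZ12 and 13.5% for PCGF2. The widest RING1B peak, of 45577 bp, was at Hand2, a transcription factor of heart, limb and jaw that lies downstream of endothelin signalling in the arches, and this exceeded the peak at Dlx5 and Dlx6. Ednra, the endothelin receptor, was the gene without PCGF2, and had 965 bp in RING1B, while its ligand gene Edn1 had 2045 bp.

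Genes of bone and epidermis were divided. In each list 3 of 8 had a peak. This share is below the 53.2% of all genes with RING1B, and above the 24.8% with SUZ12 and the 13.5% with PCGF2. Those with peaks were Tfap2a, an early regulator of epidermis and neural crest, with 47427 bp in RING1B, Sp6 with 12110 bp and Runx2, the regulator of osteoblasts, with 10755 bp. Sp7, Ibsp, Bglap, Trp63 and Krt14 had no peak in any list, and of these Ibsp and Bglap encode bone matrix proteins and Krt14 a keratin of basal epidermis.

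**Figure D5:**
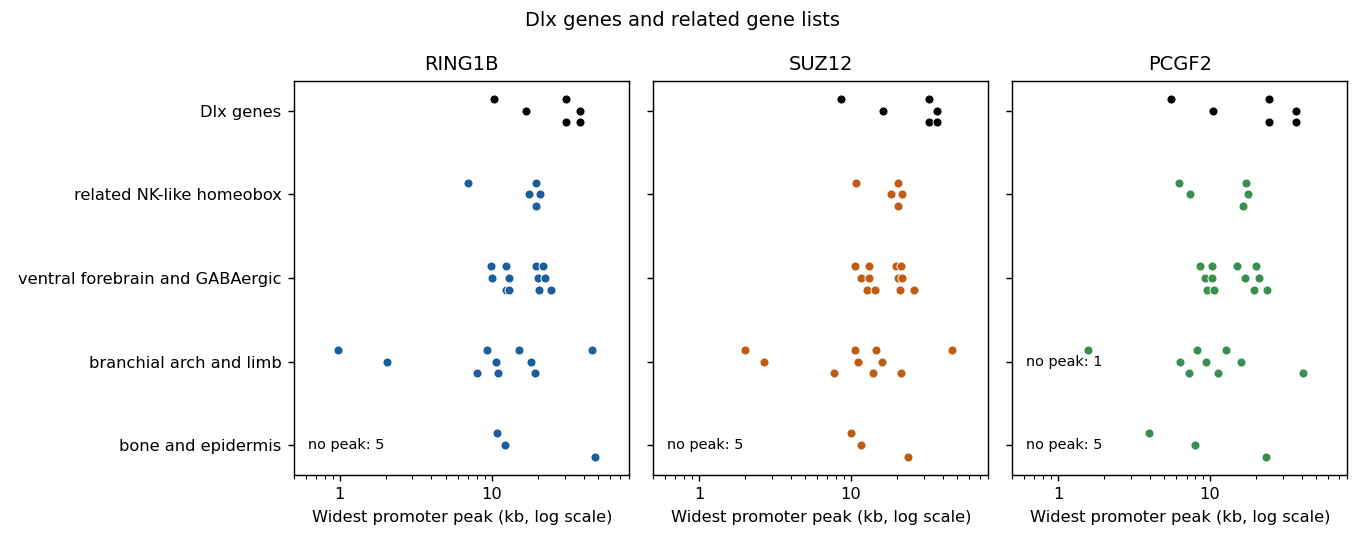
Width of the widest promoter peak in kb (log scale) for the 6 Dlx genes (black) and for the genes of 4 lists (coloured), with the number of genes without a peak written in. Dlx1, Dlx2, Dlx5 and Dlx6 lie at the wide end in each list, with a wider peak at Hand2 in all 3 lists and at Tfap2a in RING1B, and 5 of the 8 bone and epidermis genes have no peak.

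Promoters of 3 genes that are active in ESCs were also read. Pou5f1, a pluripotency factor, had a RING1B peak of 3631 bp and Actb one of 2397 bp, with no SUZ12 or PCGF2 peak at either, and Nanog had none in any list. Of these 3 promoters none had peaks of all 3 lists, whereas each Dlx promoter did. Only 13.4% of all promoters had peaks of all 3 lists, and 53.2% had a RING1B peak, so 3 genes are too few to check the lists.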

How the data were processed

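The data were chromatin immunoprecipitation sequencing of RING1B, SUZ12 and PCGF2 in untreated PRC1CPM and PRC1CKO ESCs. The authors mapped read pairs with Bowtie 2 to a joint mouse (mm10) and human (hg19) genome, the latter for the HEK293T spike-in. Unique reads were kept, Sambamba took out duplicates, and MACS2 called broad peaks over the matched Input. The labels list Bowtie2, deepTools and MACS2 among the submitters' tools. RING1B and SUZ12 peaks came from merged replicates and were kept if found in both lines, and RING1B peaks had also to lose signal on tamoxifen in PRC1CKO cells. PCGF2 peaks were kept if found in every PRC1CPM replicate. These rules can change which peaks exist and how wide they are. The deposited values are peak starts and ends in base pairs, with no height, p-value, replicate or depth.

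Curated RefSeq transcripts of GRCm38.p6, which has the coordinates of mm10, gave genes and TSSs. Gene bodies were the union of the curated transcripts of a gene. A convergent pair was a plus-strand gene followed by a minus-strand gene that does not overlap it, with TSSs no more than 50 kb apart and no curated gene wholly between them. Overlaps, widths and CpG content were computed in Python 3.11.15 with numpy 2.4.6, and the overlap search was checked on 10000 simulated intervals with 0 errors. CpG islands were called in windows of 200 bp moved by 10 bp. The observed to expected ratio is the CpG count multiplied by the length and divided by the count of C and the count of G.

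The genes, gene lists and comparisons were chosen with earlier results of these data known. Genes named beside the members were those within 20 kb of a pair, the nearest 2 protein-coding genes on each side, the 3 genes nearest in peak widths to each member, and from each list the 2 with the widest RING1B peak and all without one. One gene of the lists is not reported here. Other genes of a list are named where a value is compared. Tamoxifen-treated samples and coverage tracks were not analysed here.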

Additional observations from a re-analysis of the deposited data

How the results depend on the processing

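Across 64 values under the alternatives for 13 results, 58 stayed within 1.5 times the count or within the 95% counting interval of the percentile. Alternatives that change only the background leave a Dlx count as it was by construction, and joined peaks or wider windows cannot lower one. The tally is therefore a weak measure of stability. It leaves out the background shares, some of which moved, as in the 0.823% of 1822 protein-coding pairs bridged by RING1B against 1.95% of all pairs. The count of Dlx genes with a promoter peak was 6 in each list, and the count of bridged pairs 2 in each list, under every alternative run: windows of 1000 bp, a peak containing the TSSs and, for promoters, windows of 5000 bp, 50% coverage, peaks of at least 1 kb and predicted transcripts, and for pairs, peaks joined across 1 kb or 3 kb. With only peaks that touch no promoter, a peak lay between the genes in 1 of 3 pairs for RING1B, 1 for SUZ12 and 0 for PCGF2, because the bridging peaks are left out by construction, and in 6.69%, 3.18% and 0.677% of the 2512 pairs. Ranked among promoter peaks, the median RING1B width percentile was 99.77 in place of 99.85, and among peaks overlapping all 3 lists 99.21. That of SUZ12 among such peaks was 99.44. In these medians too, a shared peak counts for both of its genes. The share of promoters whose window was covered by at least 50% was 18.1% for RING1B over all genes. Against 921 pairs with TSSs 15 to 30 kb apart, a background chosen after seeing the data, 1.09% were bridged by RING1B, 1.09% by SUZ12 and 0.76% by PCGF2, and against 1164 pairs within 25 kb 3.95%, 2.75% and 1.72%. No paired analysis was possible because a combined list has no replicates and no test was made. The lists give no depth, so whether the gap between Dlx3 and Dlx4 would close with deeper sequencing was not tested.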
